A study of Mus musculus with 8 samples.

Results

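Tumour tissue was compared with non-tumour tissue of the same liver in 3 mice fed a high fat diet, numbered 117, 186 and 1. Arrays were assigned to a tissue and a mouse by their sample labels, which gives 6 of the 8 arrays of the series, 3 of tumour and 3 of non-tumour tissue. All mice received the carcinogen DMBA, which forms DNA adducts, at 4 to 5 days of age, and were then kept on a high fat or a normal diet for 30 weeks. The other 2 arrays are livers of normal diet mice numbered 117 and 120, which carry the same DMBA treatment. They entered the normalization, the choice of probe, the gene filter and the estimate of spread, where they added degrees of freedom. The 117 among them is a different animal by its label and pairs nothing. No untreated mouse is among the samples, so every liver described carries the neonatal DMBA exposure. The labels give no strain, sex, tumour size, number of tumours or histology, and each tissue of each mouse was measured on 1 array. The p-values rest on the spread between 3 animals per tissue and between the 2 normal diet animals, and fitting the 6 high fat diet arrays alone gave 1698 rises and 1920 falls in place of the 2009 and 2258 given below.

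The arrays were 1-colour oligonucleotide arrays hybridised with Cy5-labelled amplified RNA, on which 23473 probes were measured by brightness. Between 81.8% and 88.5% of the probes had a deposited value on an array, and such a probe is called listed here. Levels below are the authors' deposited values, which put the median listed probe of every array at 25, and are given in the order of mice 117, 186 and 1. Changes are log2 differences, tumour minus non-tumour, from a limma fit to quantile-normalized signals with an offset of 50, given ± SE, so the changes of dim genes are understated and the ratio of 2 deposited values need not equal the fitted change. A gene was called at a limma Benjamini-Hochberg adjusted p below 0.05 over the 16796 genes tested. Because these are pieces of tissue, fewer cells of a type and less RNA per cell cannot be told apart. All 25 hepatocyte marker genes tested were listed on all 6 arrays.

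The liver makes most plasma proteins, handles amino acids, fatty acids, bile acids, haem and foreign compounds, and buffers metals. In rodents, liver tumours often keep part of this programme while raising genes of fetal liver, of epithelial adhesion and of growth factor signalling. Hepatocytes are also zoned along the blood flow, and Wnt signalling near the central vein sustains a set of their enzymes.

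Of the 16796 genes, 2009 were higher in tumour tissue (12% of those tested) and 2258 were lower (13.4%), together 25.4%. The list counts below are to be read beside these shares, and several lie near them. In every called gene the 3 tumour and 3 non-tumour values did not overlap and all 3 mice moved the same way. Of all genes tested, 41.4% and 59.1% did so. The calls were made from these same values, so this follows largely from the selection and is no separate support. Over 2-fold changes were seen in 287 called rises and 282 called falls, and over 4-fold changes in 46 and 51. With the mouse as a block, limma called 1649 rises and 1845 falls, of which 1416 and 1580 were also called without it. When each spot's local background reading replaced the blank spots as background, 95 rises and 31 falls were called, and Mt1, Hgfac and Selenok, described below as rises, had changes below 0 that were not called. Listed on all 3 tumour arrays and on no non-tumour array were 59 genes, and 21 genes showed the reverse.

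Among the 20 largest rises that were measured on all 6 arrays were genes of adhesion, secretion and cytokine signalling. These rises, and the falls below, were ranked among called genes whose tissues did not overlap and whose 3 mice moved the same way. Klrb1b, which encodes a lectin-like receptor known from natural killer cells, stood at 5.2, 5.6 and 2.1 in non-tumour and 408, 242 and 633 in tumour tissue. Its fitted change was 3.32 ± 0.28 (adjusted p = 0.000758), although the marker list of T and natural killer cells had no called gene. Itih5, a hyaluronan-binding inter-alpha-trypsin inhibitor heavy chain, read 66.3, 55.2 and 22.9 in non-tumour and 840.3, 547 and 1277 in tumour tissue. Its change was 3.47 ± 0.31 (adjusted p = 0.000856), and 2.79 on the gene's other probe. Nid1, the basement membrane protein nidogen, rose from 235, 216 and 166 to 1526, 928 and 2189.5, a change of 2.84 ± 0.26 (adjusted p = 0.000921). Lcn2, a siderophore-binding protein secreted by stressed hepatocytes and by neutrophils, rose from 314, 514 and 372 to 3422, 4610.3 and 6928, with a change of 3.73 ± 0.26 (adjusted p = 0.000459). Tnfrsf12a, the receptor of the cytokine TWEAK, read 111, 111 and 142 and then 748, 675 and 1013, a change of 2.58 ± 0.11 (adjusted p = 0.000154) that varied little between mice. Cxcl13, a chemokine that draws B cells, was near the floor in non-tumour tissue at 3.5, 2.8 and 5.9 and reached 193, 192 and 499.6 in tumours, and Krt20, an intestinal keratin, went from 2.6, 2.6 and 3.8 to 217, 255 and 233.

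The 20 largest falls included enzymes and transporters of mature hepatocytes. Prodh, which starts proline breakdown, read 832, 597 and 679 in non-tumour and 93.7, 113 and 23.4 in tumour tissue, a change of -2.57 ± 0.34 (adjusted p = 0.00299). Aox3, an aldehyde oxidase, fell from 2683, 2341 and 2292 to 468, 315 and 182, and its change was -2.68 ± 0.33 (adjusted p = 0.00249). Slco1b2, a carrier that takes bile acids and drugs up from blood, fell from 2093, 1755 and 1972 to 286, 360.2 and 72.9. In these 3 genes the tumour of mouse 1 was the lowest of all 6 samples. Nnmt, which methylates nicotinamide, went from 560.2, 374 and 1072 to 57, 53.2 and 24.1, Elovl3, a fatty acid elongase, from 364, 418 and 1138 to 41.1, 56.4 and 15.5, and Nat8f2, an acetyltransferase family member, from 2432, 1657 and 3278 to 378, 352 and 307. Their fitted changes were -2.81, -2.84 and -2.46, all called. Hpd, an enzyme of tyrosine breakdown, had 5812, 5114 and 7139.8 in non-tumour and 822, 984 and 148 in tumour tissue, and Cyp2e1, a pericentral cytochrome P450, had 31084, 24645 and 32306 and 5359, 7218 and 1305. Both were called (adjusted p = 0.0165 and 0.026) and both missed the threshold with the mouse as a block, at adjusted p = 0.0613 and 0.0695. Hpd also missed it without the non-tumour array of mouse 117 (0.0511) or of mouse 1 (0.0556), and Cyp2e1 without the non-tumour array of mouse 117 (0.0728), 186 (0.0679) or 1 (0.0751) or either normal diet array (0.0507). Cyp1a2, another pericentral P450, was called at 0.01 without the block and stood at 0.0614 with it.

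**Figure D1:**
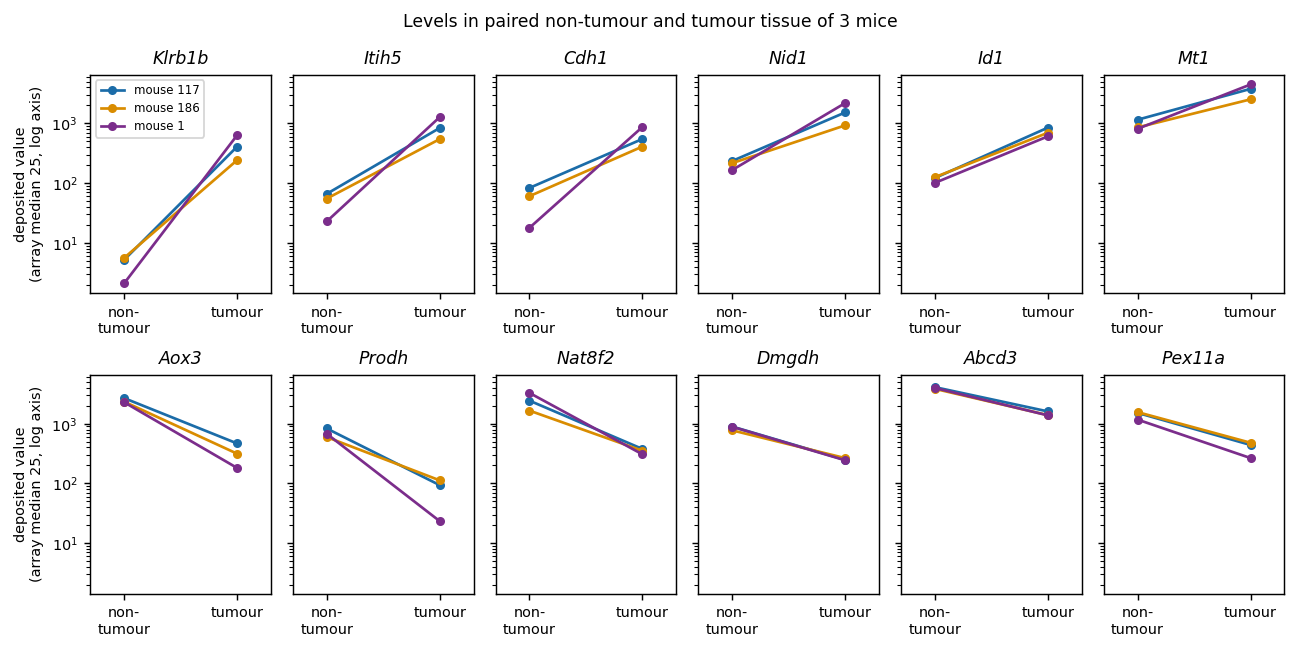
Deposited values (array median 25, log axis) of 6 genes higher and 6 genes lower in tumour tissue, with a line joining the 2 tissues of each of the 3 mice. In each of the 12 genes all 3 lines run the same way and the tissues do not overlap. The fitted values of every called gene did both.

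Metallothioneins, small proteins that bind zinc and copper, were higher in all 3 tumours, as was the zinc importer Slc39a4. Mt1 read 1152, 856 and 812 in non-tumour and 3784, 2528 and 4484 in tumour tissue, a change of 2.17 ± 0.21 (adjusted p = 0.00108). Mt2 read 759, 688 and 375 and then 3045, 1980.3 and 2630.2, a change of 2.28 ± 0.28 (adjusted p = 0.0024). The lowest tumour value was above the highest non-tumour value for both, and the fitted values of every called gene were separated likewise. Their promoters are shown because both genes are known targets of the metal-sensing factor MTF-1, whose core motif is TGCACNC or TGCGCNC; matches on either strand are in capitals in RefSeq sequence of build GRCm38.p6. The Mt1 stretch is chr8:94178839-94179118 and the Mt2 stretch chr8:94172368-94172647, both on the plus strand, from 250 bases before to 30 bases after the annotated start.
Mt1: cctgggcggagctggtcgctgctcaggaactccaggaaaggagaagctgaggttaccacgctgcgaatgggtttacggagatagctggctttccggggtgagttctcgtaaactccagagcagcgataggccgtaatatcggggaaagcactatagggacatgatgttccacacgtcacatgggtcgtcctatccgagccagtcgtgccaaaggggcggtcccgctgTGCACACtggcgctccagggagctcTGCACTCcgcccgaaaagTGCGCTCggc
Mt2: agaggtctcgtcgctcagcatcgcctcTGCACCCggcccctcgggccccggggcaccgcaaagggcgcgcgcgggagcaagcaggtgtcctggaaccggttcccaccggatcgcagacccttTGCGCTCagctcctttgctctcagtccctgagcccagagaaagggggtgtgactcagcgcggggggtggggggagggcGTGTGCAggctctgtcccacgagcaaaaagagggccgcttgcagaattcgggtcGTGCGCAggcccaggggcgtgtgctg
The Mt1 stretch holds 3 matches and the Mt2 stretch 4. Of 32851 mouse promoters of 300 bases, 25.7% hold at least 1 match and 1.97% hold at least 3. Among 4719 measured genes with a match, 552 were higher and 676 lower in tumours, shares near those of all genes. Of 35 measured genes of metal handling, 14 rose and 3 fell, with a median change of 0.06 against -0.01 over all genes, and 9 rose without the non-tumour array of mouse 117. Slc39a4 went from 199.6, 224 and 168 to 403, 458 and 680.4, a change of 1.36 ± 0.18 (adjusted p = 0.00308). Slc39a9 changed by 1.76 on the probe used and by 0.13 on its other probe.

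A search of 11 motifs in all was made in these promoters, and the 2 described here were chosen after their counts had been seen. The other is the endoplasmic reticulum stress response element, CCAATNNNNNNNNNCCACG, read on both strands, which 0.119% of promoters hold. Of 22 measured genes with a match, 9 were higher and 3 lower in tumour tissue, where 12% and 13.4% of all genes tested were. The counts of several of the other motifs lie near those shares. For the remaining 9 motifs the counts higher and lower were 41 and 57 of 443 genes for TGATGNAA, 6 and 13 of 93 for TGATGNAAT, 7 and 5 of 44 for the NF-kappa-B motifs, 2 and 0 of 7 for the PPAR motif, 11 and 20 of 83 for the HNF4 motif, 10 and 13 of 75 for the CLEAR motif, 30 and 25 of 190 for the sterol response motif, 101 and 90 of 698 for the AP-1 motif, and 20 and 24 of 150 for the TEAD motif. The matched bases of the 4 risen genes with the largest change are shown, with the motif's fixed letters in capitals.
Hspa5: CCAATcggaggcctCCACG
Pdia6: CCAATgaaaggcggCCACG
Creld2: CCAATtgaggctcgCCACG
Hsp90b1: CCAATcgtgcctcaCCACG
They lie at chr2:34772025-34772043, chr12:17266491-17266509, chr15:88819520-88819538 and chr10:86705533-86705551 of GRCm38.p6, and the Hsp90b1 promoter holds a further match. Hspa5, the chaperone BiP, read 3915, 3751 and 3211 in non-tumour and 8679.7, 7042 and 8242 in tumour tissue, a change of 1.45 (adjusted p = 0.000599). Pdia6, a disulfide isomerase, read 1867, 2002 and 2269 and 3850.4, 3312 and 5419, a change of 1.25 (adjusted p = 0.0016). Creld2 changed by 1.17 and Hsp90b1, an endoplasmic reticulum chaperone, by 0.76, both called. The Creld2 match is also the match of its divergent neighbour Alg12, so the 22 genes are not independent.

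Rises outnumbered falls among epithelial adhesion genes. Of 45 measured junction and cadherin genes 13 rose and 3 fell. Cdh1, the epithelial cadherin, read 83.3, 60.6 and 17.9 in non-tumour and 549, 410.1 and 872 in tumour tissue, a change of 2.90 ± 0.35 (adjusted p = 0.00227). F11r, a tight junction receptor, went from 384, 422 and 331 to 1014, 832 and 1188, and the claudins Cldn1 and Cldn14 changed by 1.02 and 1.11, all called. Tetraspanins, membrane organisers, had 11 rises and 1 fall among 28 genes, and 7 rises without the non-tumour array of mouse 117 or of mouse 1. Besides Tspan8, at 63.6, 30.2 and 11.9 and then 3804, 1998 and 4703, Cd63 went from 553, 890.5 and 624 to 1850.0, 2160.0 and 2615 and Cd9 from 196, 268 and 230.2 to 719.6, 723 and 1093. Of 31 integrin genes and adaptors 6 rose and 4 fell, and 2 fell with the block or without either array of mouse 1, with Itga6, the laminin receptor subunit, changed by 0.94 and the adaptor Parva by -0.58. Tubulin, actin and microtubule genes had 12 rises and 4 falls among 45, with 7 rises without the non-tumour array of mouse 186 and 2 falls without the tumour array of mouse 117. Tubb5 read 265, 244 and 262 in non-tumour and 614, 604 and 692 in tumour tissue, a change of 1.41 ± 0.04 (adjusted p = 2.96e-05), and Arpc1b, a subunit of the actin-nucleating Arp2/3 complex, changed by 1.79, and by 1.43 on its other probe.

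Growth factor pathways had called genes in both directions, where 12% of all genes tested were called higher and 13.4% lower. Of 47 genes of TGF beta, activin and BMP signalling 13 rose and 3 fell, and 8 rose without the non-tumour array of mouse 186. Id1, an inhibitor of differentiation induced by BMP, read 122, 126 and 101 in non-tumour and 849, 697 and 607 in tumour tissue, a change of 2.45 ± 0.17 (adjusted p = 0.000467). FGF and HGF signalling had 8 rises and 2 falls among 26 genes, with 8 to 9 rises when any 1 array was left out. Hgfac, the protease that activates HGF, went from 487, 523 and 544 to 1405, 1158 and 1699.8, Fgfr2, a receptor, from 31.3, 38.5 and 26.9 to 100.2, 132 and 116, and Plat, tissue plasminogen activator, from 6.6, 6.8 and 7.3 to 69.7, 110.3 and 154. Hpgd, on that list but known as the prostaglandin-degrading dehydrogenase, changed by -1.47. The EGF family list had 4 rises and no fall among 25 genes, a share of rises near that of all genes. The rises were led by Rhbdf1, which traffics the ligand-shedding protease, at 0.76, and the ligand Nrg1 at 0.75. Hippo pathway targets had 5 rises and no fall among 26, which became 2 rises with the mouse as a block, 2 without any single non-tumour array, either normal diet array or the tumour array of mouse 186, and 3 without the tumour array of mouse 1.

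Falls outnumbered rises among Wnt pathway genes, with 2 rises and 11 falls among 43. With the mouse as a block 1 rose and 8 fell, and leaving out 1 array gave 1 to 3 rises and 8 to 11 falls. Notum, a secreted Wnt antagonist and pericentral target, read 33.4, 31.1 and 41.2 in non-tumour and 3.6, 13.8 and 3.6 in tumour tissue, Rspo3, a Wnt-amplifying ligand, 67.3, 69.9 and 76.2 and 32.3, 45.4 and 33.7, and the receptor Fzd1 67.9, 70.1 and 77.1 and 29.1, 47.4 and 31.5. Their changes were -0.64, -0.50 and -0.53, all called, and Notum changed by -0.24 on its other probe. Ctnnb1, beta-catenin, rose by 0.76 (adjusted p = 0.0164). That call was lost in the blocked fit (adjusted p = 0.0775) and when the tumour array of mouse 117 was left out (0.0544). Notch genes had 5 rises and 2 falls among 27, and 3 rises without either normal diet array or the non-tumour array of mouse 117 or 186. Nrarp, a Notch target, changed by 0.63, and Aph1a, a gamma-secretase subunit, by -1.66 on the probe used and -0.39 on another. Insulin signalling had 7 rises and 5 falls among 38, not far from the shares of all genes tested. It had 4 rises in the deposited values and 3 falls without the non-tumour array of mouse 117 or 186. Trib3, a stress-induced pseudokinase that binds AKT, went from 46.6, 35.6 and 36.1 to 127, 131 and 123, and Pik3r1, a regulatory subunit of PI3 kinase, from 127, 168 and 136 to 43.8, 70.5 and 58.5. Hypoxia-inducible factor targets had 7 rises and 3 falls among 29, and 4 rises with the block. Their rises were 3 without any single non-tumour array and 2 without the tumour array of mouse 117 or of mouse 1.

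Falls were frequent among peroxisome genes. Of 20 measured genes 11 fell and 1 rose, with a median change of -0.36, and 8 to 11 fell when any 1 array was left out. Abcd3, the main peroxisomal fatty acid carrier, read 4094, 3837 and 3964 in non-tumour and 1606, 1392 and 1380.5 in tumour tissue, a change of -1.15 ± 0.12 (adjusted p = 0.00121). Pex11a, which divides peroxisomes, read 1519.9, 1564 and 1173 and 442, 480.1 and 266, a change of -1.57 ± 0.25 (adjusted p = 0.00633). Cat, catalase, changed by -0.88. The exception was Abcd2, a related carrier, which rose from 170.5, 189 and 172 to 626, 448 and 760.2, a change of 1.73 ± 0.18 (adjusted p = 0.00144).

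Folate and choline-derived one-carbon enzymes had 8 falls and 1 rise among 23 genes, and 7 to 8 falls when any 1 array was left out. Dmgdh, dimethylglycine dehydrogenase, read 897, 775 and 889 in non-tumour and 248, 266 and 245 in tumour tissue, a change of -1.39 ± 0.08 (adjusted p = 0.000299), and Sardh, the next enzyme, changed by -1.15. The rise was Folr2, a folate receptor known from macrophages, from 168, 143 and 152 to 368, 257 and 465. Of 45 genes of the pentose phosphate pathway and nucleotide synthesis 13 fell and 5 rose, and 8 fell without the non-tumour array of mouse 117 or 186. The rises were 2 with the block and 3 without the tumour array of mouse 117. The listed members that moved most were the pyrimidine-degrading enzymes Dpys, from 927, 601 and 692 to 178, 188 and 123, and Dpyd, from 662, 774 and 665 to 227, 236 and 154. Haem genes had 7 falls and 2 rises among 19, and 11 falls when arrays were scaled to the same median. Alas1, the rate-limiting enzyme of haem synthesis in liver, read 10348, 6446 and 6618 and 2379.9, 1738 and 575, a change of -2.19 ± 0.58 (adjusted p = 0.0356). That call was lost without any single non-tumour array (0.106, 0.0805 and 0.0754 for mice 117, 186 and 1), either normal diet array (0.0523) or the tumour array of mouse 186 (0.0516). Blvrb, a biliverdin reductase, and Abcb6, a porphyrin carrier, changed by -1.16 and -1.03.

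Among 36 ABC transporters 7 fell and 3 rose, and leaving out 1 array gave 6 to 8 falls and 0 to 3 rises. The canalicular bile salt pump Abcb11 went from 969, 983 and 1360.1 to 264, 424 and 342, a change of -1.34 ± 0.18 (adjusted p = 0.00327), and the phospholipid carrier Abcb4 from 1269, 1056 and 1308 to 468, 518 and 485. Glucose transport and glycogen genes had 3 rises and 5 falls among 29, near the shares of all genes tested. They had 2 falls without any single non-tumour array and 3 falls without the tumour array of mouse 117 or 1. Without the tumour array of mouse 186 they had 5 rises. The 2 glycogen phosphorylases moved apart, Pygl, the liver form, from 1536, 1491 and 1715 to 661, 759 and 601 and Pygb, the brain form, from 31.1, 27.4 and 20.3 to 142, 118 and 231, changes of -0.92 and 1.59. Amino acid transporters had 4 rises and 6 falls among 31, and 3 falls without the tumour array of mouse 117. Their rises were 2 with the block, with median scaling and without the tumour array of mouse 117 or 1, the non-tumour array of mouse 1 or either normal diet array, and 1 without the non-tumour array of mouse 186. Polyamine genes had 5 rises and 2 falls among 17, with 2 rises in the deposited values and 3 with median scaling or without either array of mouse 1, the tumour array of mouse 117 or the non-tumour array of mouse 186. Their largest rise was Smox, spermine oxidase, from 15.6, 13.8 and 12.1 to 147, 95.1 and 163. Selenium genes had 2 rises and 7 falls among 26, with 4 falls with the block and 11 with median scaling. The rises were Selenos and Selenok, both of the endoplasmic reticulum membrane, at 0.90 and 0.84.

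Calls among genes of protein synthesis depended on the scaling for the cytosolic factors. Cytosolic translation factors had 16 rises and 3 falls among 47, but 8 rises and 3 falls when arrays were scaled to the same median and 4 rises and 4 falls in the deposited values. Pabpc1, the poly(A)-binding protein, went from 1496, 1249 and 1599 to 2370.1, 2469 and 2518. Cytosolic aminoacyl-tRNA synthetases had 8 rises and 1 fall among 22, with 4 rises in the deposited values and 5 with median scaling or without the tumour array of mouse 117 or the non-tumour array of mouse 117 or 1. Sars, the seryl-tRNA synthetase, changed by 0.69. Mitochondrial ribosome proteins had 22 falls and 1 rise among 59, with 12 falls without the tumour array of mouse 117, and 11 and 14 without the non-tumour arrays of mice 186 and 1. Mrpl14 read 938, 827 and 1036 in non-tumour and 484, 376 and 521 in tumour tissue, a change of -0.73 ± 0.11 (adjusted p = 0.00463). Lysosome and autophagy genes had 13 falls and 4 rises among 48. Gabarapl1, which coats autophagosomes, went from 1986, 2368 and 2096 to 856, 832 and 713, and Lgmn, a lysosomal protease, from 348, 349.5 and 379.8 to 511, 604 and 987. Proteasome subunits had 1 rise and 4 falls among 38, with 12 falls with median scaling, 8 in the deposited values, 7 without the non-tumour array of mouse 117 and 2 without that of mouse 186 or 1. Cytosolic chaperones had 5 rises and 8 falls among 40, with 1 rise under median scaling and 0 in the deposited values. Leaving out 1 array gave 1 to 6 rises, and 4 falls without the non-tumour array of mouse 1 and 5 without that of mouse 186 or the tumour array of mouse 117 or 1. The small heat shock protein gene Hspb1 went from 1142, 1454 and 1317 to 278, 459 and 184. Apoptosis regulators had 4 rises and 4 falls among 40, near the shares of all genes tested. Casp12 changed by 1.16 and Cycs, cytochrome c, by -0.80.

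Several secreted liver proteins rose and others fell. Of 28 serpins 10 rose and 2 fell, with 8 to 10 rises when any 1 array was left out. Serpinf2, the plasmin inhibitor, read 1319.8, 1147 and 1219 in non-tumour and 4071, 3697 and 4291 in tumour tissue, a change of 1.94 ± 0.06 (adjusted p = 5.09e-05). Serpina3n, an acute phase antiprotease, changed by 1.23, and Serpina1e belongs to a family of near-identical genes that a probe may not separate. Several other acute phase genes were called lower, among them Saa1 at -1.25, Orm2 at -1.37 and Crp at -1.12. Others were called higher, among them Apcs at 1.51 and Cp at 1.38, so acute phase genes moved both ways. Of 25 hepatocyte markers 11 rose and 5 fell, where 12% and 13.4% of all genes tested did. With median scaling 7 rose and 6 fell, and in the deposited values 6 rose and 5 fell. The excess of rises over falls in this list thus depended on the scaling. Ahsg, fetuin A, went from 17879.6, 14759 and 22242 to 39551, 35521 and 43869 and Fgb, a fibrinogen chain, from 15006, 12177 and 13962 to 26969, 18889.9 and 31367, changes of 1.35 and 1.19. Hnf4a, a hepatocyte transcription factor, was not called (change 0.47 ± 0.16, adjusted p = 0.0759) and passed the threshold with the mouse as a block (adjusted p = 0.0133).

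**Figure D2:**
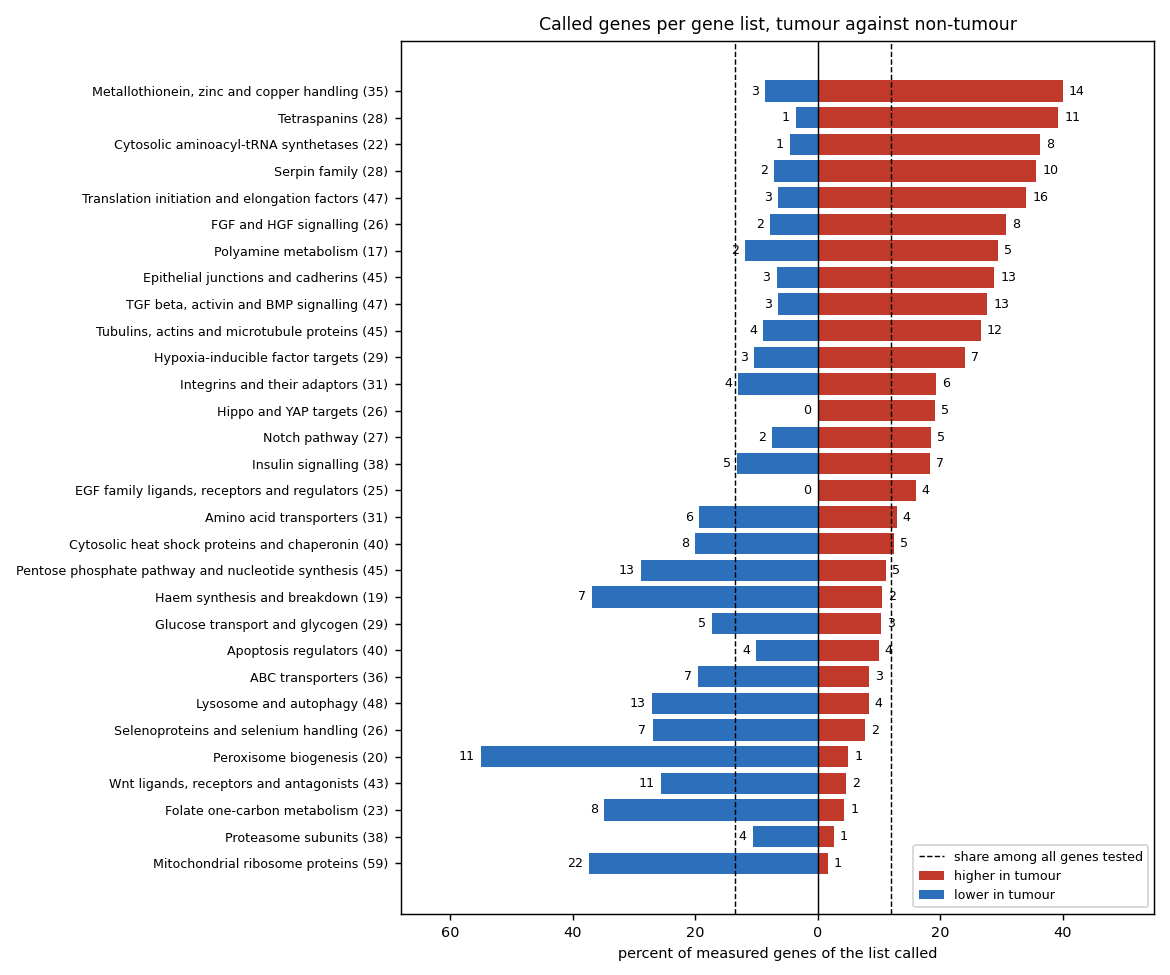
Percent of the measured genes of 30 lists that were called higher (right) or lower (left) in tumour tissue, with the number of genes at each bar and the number measured in brackets; dashed lines mark 12% and 13.4%, the shares of all genes tested. Peroxisome genes have 11 falls of 20 and metal handling genes 14 rises of 35.

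The tumour of mouse 1 departed most from its own non-tumour tissue. Of the 287 rises over 2-fold the largest paired change was in mouse 1 in 205 (71.4%), and of the 282 falls in 248 (87.9%). The median paired change of the falls was -1.32 in mouse 117, -1.14 in mouse 186 and -1.76 in mouse 1, and that of the rises 1.37, 1.23 and 1.63. Across genes, paired changes correlated at 0.869 between mice 117 and 186, 0.903 between 117 and 1, and 0.828 between 186 and 1, as a description over genes that are not independent replicates. Tumour arrays varied more between mice than non-tumour arrays, with a larger SD in 58.9% of genes and an SD over 1 in 29 genes against 6.

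**Figure D3:**
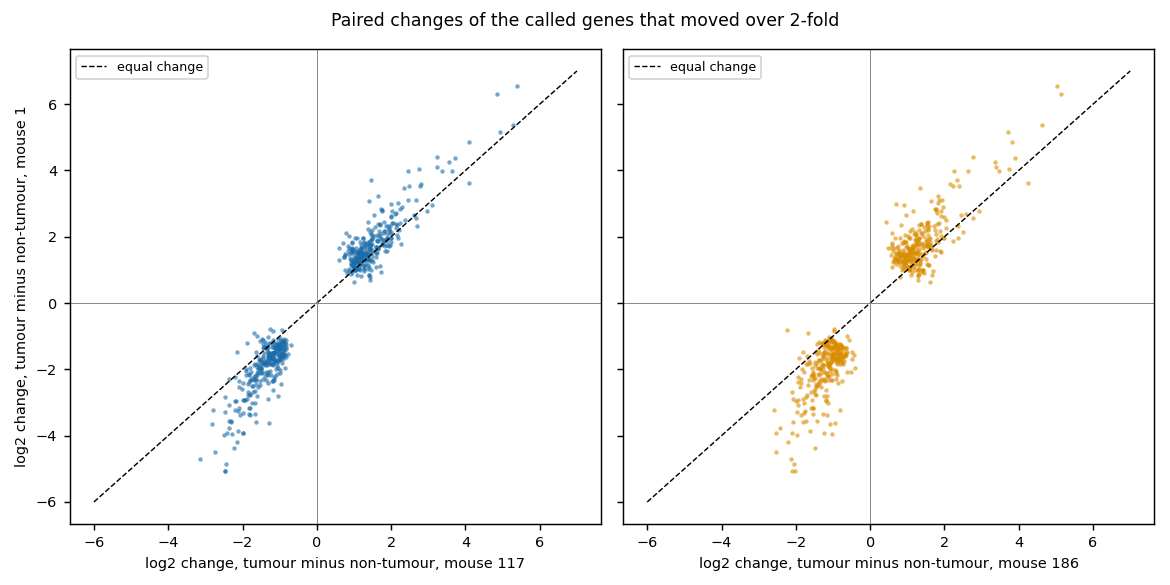
Paired log2 changes of the 569 called genes that moved over 2-fold, with mouse 1 on the vertical axis and mouse 117 (left) or 186 (right) on the horizontal axis; the dashed line marks equal change. Most points lie farther from 0 on the axis of mouse 1, which had the largest change in 205 of 287 rises and 248 of 282 falls.

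Some genes were high in 1 sample. Ly6k, a GPI-anchored surface protein, read 26.2, 2.6 and 6.0 in non-tumour and 2.2, 2.7 and 546 in tumour tissue, so only the tumour of mouse 1 was high. H19, an imprinted RNA of fetal liver, read 8.4, 3.4 and 1.3 and 21.2, 355 and 24.7, and the tumour of mouse 186 was the high sample; its change was 1.38 on the probe used and 0.29 on the other. Hamp, the iron hormone hepcidin, read 814, 1203 and 7021 and 711, 926 and 357, with the non-tumour tissue of mouse 1 above the other 5. Csn3, kappa casein, had no listed value in non-tumour tissue and 14.3, 23.5 and 526 in tumours. None of these 4 was called (adjusted p = 0.531, 0.215, 0.311 and 0.249).

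Markers of other cell types moved less evenly. Endothelial markers had 7 rises and no fall among 21 genes, but 4 rises with the block, 4 without the non-tumour array of mouse 186 and 3 without that of mouse 1. Cd34 read 13.2, 8.0 and 7.6 and 60.5, 35.4 and 44.8, and the summed deposited level of the list overlapped between tissues, at 1611 to 1937 in non-tumour and 1672 to 2256 in tumour samples, with Cdh5 listed on no high fat diet array. Kupffer cell and macrophage markers had 4 rises and 3 falls among 25, near the shares of all genes tested. The resident Kupffer cell genes Cd5l and Clec4f changed by -1.01 and -1.40, the latter lost with the block (adjusted p = 0.0632). The endotoxin receptor Cd14 went from 40.7, 67.2 and 35.1 to 212, 303 and 470.4. Folr2, the macrophage folate receptor named above, was called higher at 1.15, so the falls do not stand for all macrophage genes. Cholangiocyte markers had 3 rises and 1 fall among 13, including Prom1, from 15.3, 3.0 and 2.3 to 63.2, 55.9 and 98.8, and their sums were 549 to 742 and 859 to 1015. Neutrophil markers had 2 rises and no fall among 12, and their sum went from 828, 1018 and 857 to 3808, 5063 and 7466. Without Lcn2 the sum was 514, 503 and 485 in non-tumour and 386, 453 and 539 in tumour tissue, and Mmp9 and Mpo were listed on no high fat diet array. Stellate cell and fibroblast markers had 2 rises and 3 falls among 20, with Vim at 1.22 and the stellate cell gene Lrat at -0.86. Red blood cell markers had 3 falls and no rise among 7, and 4 of the 7 moved the same way in all 3 mice. Their sum went from 37901, 18301 and 10267 in non-tumour to 17482.5, 7354.9 and 15767 in tumour tissue, so it rose in mouse 1.

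No gene of the 16 T and natural killer cell markers or of the 8 B cell markers was called by limma, and at an unadjusted p below 0.05 the counts were 1 and 0; in the deposited values 1 T and natural killer cell gene was called. Pancreas markers had 2 rises among 7 genes, including Cela1, an elastase, from 102, 113 and 92.5 to 334, 348 and 556, while Cel, Cpa1, Cpb1, Gcg and Prss2 were listed on no high fat diet array. Mesothelial markers had 2 rises among 9, Msln, mesothelin, at 1.82 and the keratin Krt18 at 1.03, the latter also a hepatocyte gene. Adipose markers had 1 rise, Lpl, and 1 fall, Pparg, among 6, and muscle markers 1 fall among 11. The part of other cell types in the changes above was not tested.

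**Figure D4:**
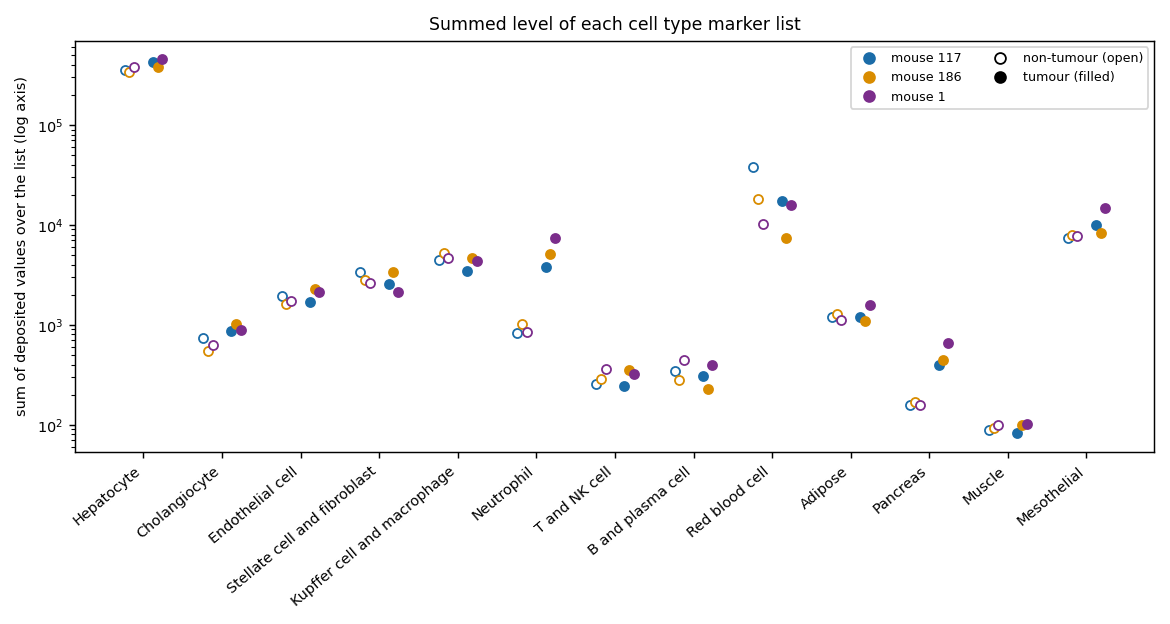
Sum of the deposited values over each marker list (log axis) in non-tumour (open) and tumour (filled) tissue of mice 117, 186 and 1. The hepatocyte, cholangiocyte, neutrophil, pancreas and mesothelial sums do not overlap between tissues, and the sums of the other 8 lists do. Of all genes tested, 41.4% did not overlap. A sum follows the brightest genes of its list. The neutrophil sums overlap once Lcn2 is left out, and Cela1 holds most of the pancreas sum.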

How the data were processed

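The deposited scanner files give a spot median intensity and a local background per spot, per the file headers, for 27456 spots and 23473 probes. The authors' deposited series values are that intensity less the mean of the blank spots, scaled to a median of 25 and left out where dim, as found by setting them against the scanner values; the authors' software is not given in the sources used here. Spot intensities were corrected with limma 3.58.1 in R 4.3.3 (normexp on blank spots, offset 50), quantile-normalized and taken to log2. Of the probes, 20690 had 1 gene symbol and 2783 did not; the brightest probe stood for each of 19316 genes, and 16796 genes listed on all arrays of a group were tested. All 8 arrays were fitted as 3 groups (5 residual degrees of freedom, two-sided tests). The pairing was taken from the mouse number in the labels. Deviations from the tissue mean correlated at 0.443, 0.148 and 0.167 within mice, against -0.274 to 0.028 between mice. Because such deviations cancel within a tissue, positive values within mice push those between mice down, so this contrast is partly forced. In simulated data 83.6%, 94.0% and 100% of genes changed by 0.5, 1 and 2 on the log2 scale were recovered, and 0.0422% of unchanged genes called. The simulation had independent normal noise, no pairing of tissues and a small set of changed genes, all raised. Its shifts were added after the offset. It checks the fit and does not give the sensitivity of the experiment. The number of arrays limits precision. Fitted and deposited directions differed in 142 of 12666 mouse comparisons of called genes.

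The comparison and the gene lists were chosen with earlier results of these data known. Genes were named from the largest rises and falls, the leading called members of each list, the genes that differed most between mice, those listed in 1 tissue only, and 6 hepatocyte genes; this rule gave 230 genes, of which the text took from 147, picked with their values and their behaviour under other settings in view. Genes shown with promoter motifs fall outside that rule and were chosen after their values were seen. Saa1, Orm2, Crp, Apcs and Cp were also named with their values in view. Alternatives covered background, scaling, deposited values, filter, offset, probe choice, the samples fitted, the block and leaving out each array. Python 3.11.15 and pandas 2.3.3 were used for tables.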

Additional observations from a re-analysis of the deposited data

How the results depend on the processing

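When each spot's local background reading replaced the blank spots, rises fell from 2009 to 95 and falls from 2258 to 31, and 116 of the 138 called genes among those considered for naming lost their call. That background reading followed the signal itself, with rank correlations of 0.902 to 0.96 per array and a median of 39.3% to 61.9% of the signal for spots over 1000. Under it Hgfac (-1.15), Oaz1 (0.23), Eef1g (-0.86), Mt1 (-0.41), Selenok (-0.56) and Abcg2 (0.0098) turned direction, none of them called there. Under the other alternatives the counts of all genes stayed within 1.5 times, at 1572 rises and 2640 falls with median scaling and 1635 and 2370 in the deposited values. Leaving out 1 array gave 1474 to 2086 rises and 1640 to 2102 falls. The spread of paired changes between mice, a mean over pairs of mice of the median absolute difference, was 0.080 and became 0.093 with median scaling and 0.29 in the deposited values. The replicate block, mouse number, gave 3494 called genes in place of 4267. Of the 147 genes it ended the call of 7, the 5 given beside their results and those of Slc1a2 (0.0567) and Cyp2c50 (0.077), and brought in Hnf4a. List counts under 5 can move by over 1.5 times through 1 or 2 genes.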
